A study of Arabidopsis thaliana with 8 samples.

Results

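The 32 genes described here lie on the plastid chromosome of Arabidopsis thaliana. Apart from some, such as the photosystem I assembly genes ycf3 and ycf4, they serve plastid gene expression and upkeep. They were chosen by symbol, as the plastid loci for the 4 subunits of the plastid RNA polymerase (rpoA, rpoB, rpoC1, rpoC2), 10 small-subunit and 9 large-subunit ribosomal proteins, matK, clpP, accD, and 6 further genes (ycf1 to ycf4, cemA and ccsA). All 32 had a probe set, out of 22746 probe sets on the array without its controls. Of these 32, 29 passed the filter on low signal and entered the tests, and rpoB, rps14 and ycf2 fell below it.

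Plastids keep a small genome of bacterial descent, which is transcribed by a bacterial-type RNA polymerase built from the rpo gene products and by polymerases imported from the cytosol. Its messages, many of them made as long transcripts that span several genes, are translated inside the organelle on bacterial-type ribosomes. Those ribosomes are assembled from plastid-encoded and nucleus-encoded proteins, and initiation on them does not use the cytosolic factor eIF3.

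The groups were eif3h and WT seedlings, each separated into polysomal RNA (PL, the lower gradient fractions, with messages on several ribosomes) and non-polysomal RNA (NP, the upper fractions, with free messages and monosomes). The eif3h seedlings carried eif3h-1, a T-DNA insertion in the gene for subunit h of eIF3 that leaves a protein truncated at its carboxy terminus. All seedlings were grown for 10 days in continuous light on agar with sucrose, and the aerial parts were extracted with cycloheximide, an inhibitor of cytosolic ribosomes. The 2 replicates came from separate preparation days, with 1 gradient per genotype in each, and 1 PL and 1 NP array were made from every gradient, so that 8 arrays were measured with 2 per group. The fractions held RNA on cytosolic and on plastid ribosomes together, and the sources used here do not give how the cDNA for the arrays was primed. Plastid messages lack the stable poly(A) tails of cytosolic ones, and in plastids such tails mark RNA for decay, so which plastid molecules an array reads can depend on the primer, and this was not tested.

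The probe set of the mutated gene, TIF3H1 (AT1G10840), had signals of 213 and 192 in eif3h PL and 1277 and 1149 in WT PL. In NP it had 1897 and 1950 in eif3h and 2160 and 1732.5 in WT. The message was thus low in PL of both eif3h gradients and present in NP of all 4. Median signals of the 8 arrays lay between 185.75 and 277. Only 2 of 6 leaf markers were named on the array, and they differed. LHCB4.2, a light-harvesting protein of photosystem II, had 7084 and 7029 in eif3h PL, 3399 and 2611 in eif3h NP, 24003 and 19828 in WT PL, and 21827.5 and 18062 in WT NP. It was lower in eif3h in PL (log2 -1.63, adjusted p = 0.00161 by limma) and in NP (log2 -2.74, adjusted p = 0.000146). RCA, the activase of Rubisco, had 23397 and 32734.5 in eif3h PL, 16758 and 14761 in eif3h NP, 29361 and 29653.5 in WT PL, and 36163 and 20809 in WT NP, and passed the test between genotypes in neither fraction (log2 -0.09 in PL and -0.80 in NP). The guard cell marker FMA had 303 and 291.5 in eif3h PL, 660 and 445 in eif3h NP, 411 and 357 in WT PL, and 485 and 472 in WT NP, with no call between genotypes. Of 4 root markers, PYK10 was the only one named, at 6909 to 8712 in eif3h PL, 1813 to 2891 in eif3h NP, 6072 to 9268 in WT PL and 1836 to 2168 in WT NP. The part of these markers in the values below was not tested.

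The translation state of a gene is the log2 ratio of its PL to its NP signal in 1 gradient, and a negative value means more signal in NP. In eif3h, 31 of the 32 genes had a negative mean translation state, with a median of -1.77, against -0.16 over all 11373 tested probe sets. In WT, 24 of the 32 were negative, and the median was -0.50, against 0.01 over all tested probe sets. By limma with Benjamini-Hochberg adjustment, 21 of the 29 tested genes were lower in PL than in NP in eif3h and none was higher, where 22.2% and 16.9% of all tested probe sets were called lower and higher. In WT 7 were lower and 1, rpl22, was higher, beside 15.1% and 15% of all tested probe sets. The WT count of lower genes was 11 with the gradient as the block, beside 19.4% of all tested probe sets. With single gradients left out, the WT median ranged from -0.74 to -0.31. The call of rpl22 was lost without the replicate block and without WT replicate 2. With median centring 28 of the 32 were negative in eif3h and 22 in WT. Most of the 32 genes thus had less PL than NP signal in both genotypes, and more of them passed the test in eif3h. That contrast between counts is not itself a test of the genotypes. All arrays were scaled to nearly the same trimmed mean. A negative value therefore does not give the share of a message outside polysomes.

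**Figure D1:**
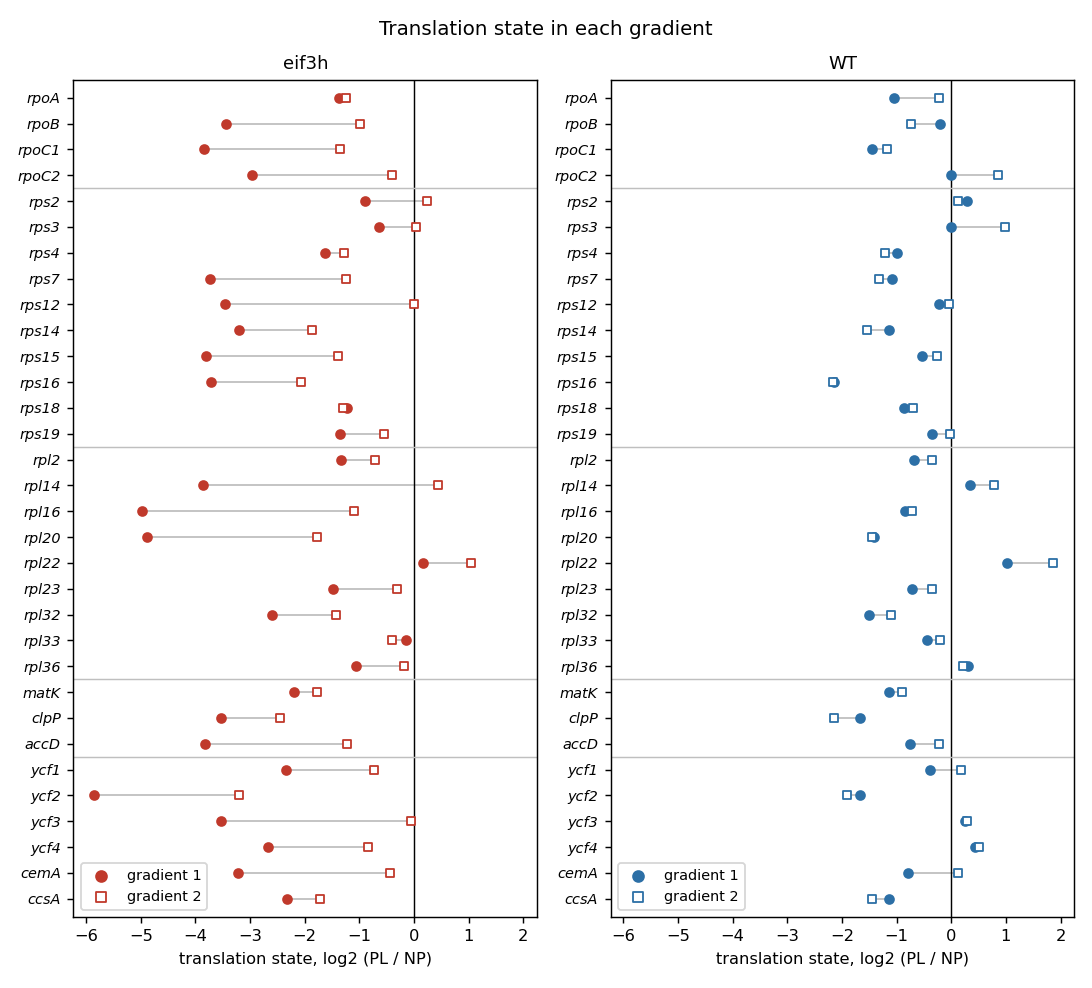
Translation state (log2 of PL over NP signal, horizontal axis) of each of the 32 genes in the eif3h gradients (left, red) and the WT gradients (right, blue); filled circles are gradient 1, open squares gradient 2, and grey lines separate the roles. The eif3h circles lie far to the left of the eif3h squares for most genes, while the WT pairs lie close together, with median gaps of 1.48 and 0.30.

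The change of translation state, eif3h minus WT, compares the ratio of PL to NP signal between the genotypes. Whether this ratio reflects the loading of plastid messages on ribosomes was not tested. The change was negative for 31 of the 32 genes, with a median of -1.13. It ranged from -2.74 (ycf2, dim and not tested) or, among tested genes, -2.28 (rpl14) to 0.06 (rpl33). With quantile normalization 31 and with median centring 29 of the 32 were negative. Over the 29 tested genes the median was -0.97 and 28 were negative. Over all tested probe sets the median was -0.12 and 59.2% were negative. None of the 29 tested genes passed the adjusted limma test, where 0.0352% of all tested probe sets were called down and 0.0176% up, and 10 of the 29 had an unadjusted p under 0.05, all with a negative change, beside 8.46% of all tested probe sets with a negative and 6.02% with a positive change at that p. With the gradient in place of the replicate number as the block, ycf4 alone passed (adjusted p = 0.0321 by limma), beside 0.615% of all tested probe sets called down. None of the 29 tested genes was called up, beside 1.02%. Each replicate pair gave its own change, and these differed in size. The median over the 32 genes was -1.91 in replicate 1 and -0.35 in replicate 2. In replicate 1, 31 of 32 were negative, and in replicate 2, 27 of 32, where 57.5% and 58% of all tested probe sets were negative. Both replicates were negative for 26 of the 32 (23 of the 29 tested) and positive for none. Over all tested probe sets the shares were 41.4% and 25.9%. For 20 of the 32 (17 of the 29 tested) both eif3h gradients lay below both WT gradients, beside 32.2% of all tested probe sets. For none did both lie above, beside 19.8%.

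**Figure D2:**
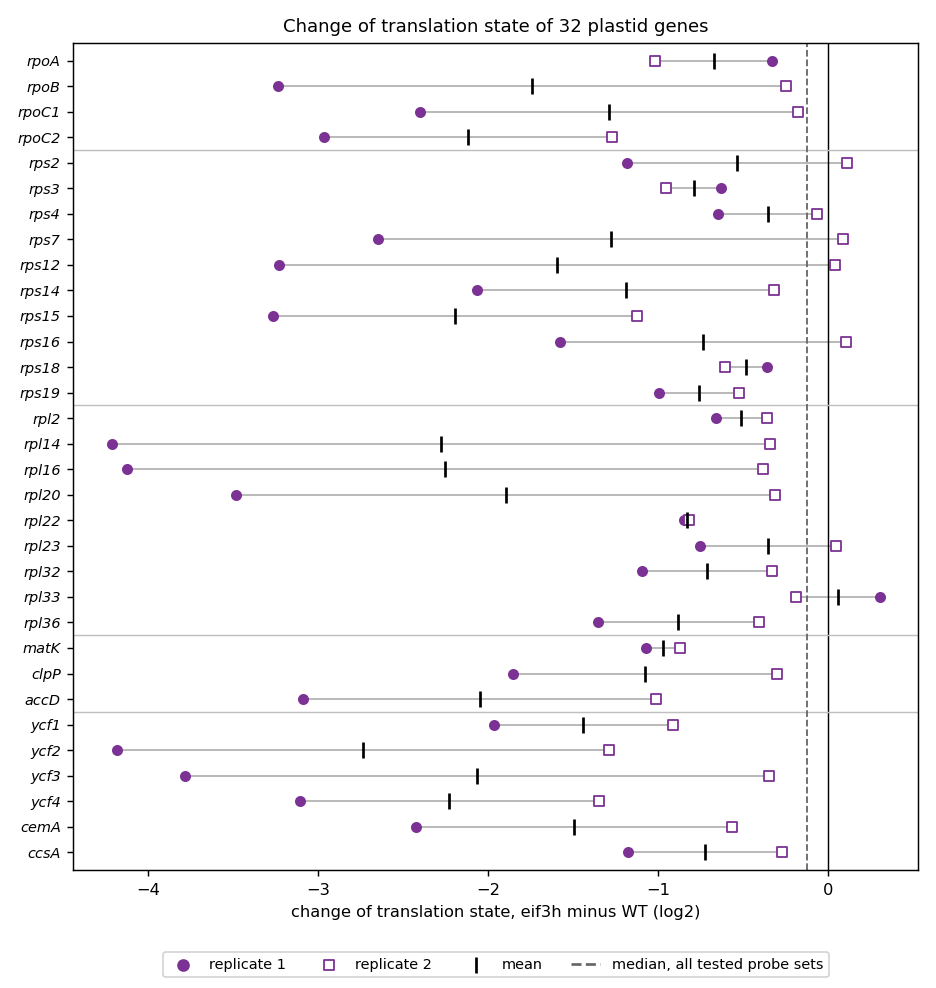
Change of translation state (eif3h minus WT, log2) of each gene in replicate 1 (filled circles) and replicate 2 (open squares), with the mean as a black tick and the median over all tested probe sets as a dashed line at -0.12. The circles reach -4.21 (rpl14), the squares end at -1.35 (ycf4), and rpl33 is the only gene with a positive mean.

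Among the RNA polymerase genes, rpoA (alpha subunit) had the highest signal and rpoC2 (the beta double-prime subunit) the lowest change of the tested ones. The signal of rpoA was 14756 and 9677 in eif3h PL, 38278 and 22818 in eif3h NP, 13439 and 7703 in WT PL, and 27719 and 8976 in WT NP. Its translation state was -1.31 ± 0.10 in eif3h and -0.63 ± 0.58 in WT (SD, n = 2 each), and the 2 eif3h gradients lay just below the lower WT gradient. Its change of -0.67 did not pass (adjusted p = 0.421 by limma). For rpoC1 (beta-prime subunit) the signal was 2378.5 and 9720 in eif3h PL, 34232 and 24743 in eif3h NP, 7440 and 6517 in WT PL, and 20312 and 14658 in WT NP. Here the PL arrays of the 2 eif3h gradients fell on either side of both WT arrays, and the mean change of -1.29 was made up of -2.40 in replicate 1 and -0.18 in replicate 2. The signal of rpoC2 was 1136 and 3088 in eif3h PL, 8893 and 4104 in eif3h NP, 1532 and 1504 in WT PL, and 1534 and 826 in WT NP. Its NP signal was 5.37-fold higher in eif3h (log2 2.42, adjusted p = 0.0138 by limma), the largest such difference of the 32, and the groups did not overlap. Its change of -2.12 was negative in both replicates (-2.97 and -1.27) but did not pass (adjusted p = 0.249). The rpoB probe set (beta subunit) was dim, with 13.4 and 53.0 in eif3h PL, 146 and 104.5 in eif3h NP, 92.6 and 75.1 in WT PL, and 107 and 125 in WT NP, and was not tested.

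All 10 small-subunit genes had a negative change (9 of 10 with quantile normalization or median centring, which turned rps4), with a median of -0.78, from -2.20 (rps15) to -0.36 (rps4). The brightest was rps4, whose protein starts the folding of one end of the small-subunit rRNA in bacteria. It had 30862.5 and 32243 in eif3h PL, 95849 and 78404 in eif3h NP, 24365 and 20784 in WT PL, and 48236 and 48343 in WT NP. The eif3h arrays were higher in both fractions without overlap, and NP rose by 1.79-fold in eif3h (log2 0.84, adjusted p = 0.0219 by limma). Because both fractions were higher, its translation state was close in the genotypes, at -1.46 ± 0.25 in eif3h and -1.10 ± 0.16 in WT (SD, n = 2 each), and the small change turned positive with quantile normalization (0.25) and with median centring (0.0071). The second in brightness was rps7, an assembly protein of the small-subunit head, whose gene lies in the inverted repeat. It had 5781 and 27609 in eif3h PL, 76799 and 65450 in eif3h NP, 18650 and 17348.5 in WT PL, and 39578 and 43640 in WT NP. Only the PL array of eif3h gradient 1 was low, so that the change was -2.65 in replicate 1 and 0.09 in replicate 2.

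The small-subunit gene with the lowest change, rps15, had 675 and 2813.5 in eif3h PL, 9478 and 7362 in eif3h NP, 2097 and 1321 in WT PL, and 3055 and 1587 in WT NP. Its change was -3.27 and -1.12 in the 2 replicates, with an adjusted p of 0.287 by limma. The eif3h NP arrays were both above the WT NP arrays, while the eif3h PL arrays fell on either side of WT PL. The lowest translation state of WT among the 32 was that of rps16, an intron-containing gene, at -2.16 ± 0.02 in WT (SD, n = 2) and -2.89 ± 1.17 in eif3h (SD, n = 2). Its signal was 344 and 491.5 in eif3h PL, 4522 and 2059 in eif3h NP, 772 and 486 in WT PL, and 3405 and 2191 in WT NP. Its PL signal was lower than its NP signal on every gradient, and the test called it in both genotypes (adjusted p = 0.000463 in eif3h and 0.00233 in WT by limma).

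The gene rps12, whose message is joined from separate transcripts by trans-splicing and whose protein sits at the decoding site, had 2 probe sets. The brighter one read 666 and 5472 in eif3h PL, 7307 and 5505 in eif3h NP, 2644 and 3216 in WT PL, and 3086.5 and 3326.5 in WT NP. The dimmer one gave a change of -1.22, against -1.60 for the brighter one. In both probe sets the PL array of eif3h gradient 1 was the lowest of the 8. The others behaved in 2 ways: rps3, rps18 and rps19 had changes of -0.79, -0.48 and -0.76 with both replicates negative, and rps2 and rps16 had -0.54 and -0.74 with replicate 2 slightly positive (0.11 for each). NP signal was higher in eif3h for rps3 (log2 1.13, adjusted p = 0.0288 by limma) and for rps19 (log2 0.78, adjusted p = 0.0486). The untested rps14 had 92.9 and 131 in eif3h PL, 860 and 475 in eif3h NP, 107 and 99.7 in WT PL, and 237.5 and 291 in WT NP, and its change was -1.19.

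The large-subunit genes had the widest range of changes of the roles, from -2.28 to 0.06. Their median change was -0.83, and 8 of 9 were negative (9 with quantile normalization, 7 with median centring). The most negative were rpl14 and rpl16, neighbours in 1 gene cluster, and both rested on eif3h gradient 1: without it the changes were -0.12 for rpl14 and -0.31 for rpl16. The signal of rpl14 was 678 and 4874 in eif3h PL, 9901 and 3592 in eif3h NP, 6355.5 and 2946 in WT PL, and 4998 and 1713 in WT NP. Its translation state was thus -3.87 and 0.44 in the eif3h gradients and 0.35 and 0.78 in the WT gradients, so the genotypes overlapped, and its change of -2.28 had a standard error of 1.24 (adjusted p = 0.422 by limma). The signal of rpl16 was 1361 and 6565 in eif3h PL, 42807 and 14002 in eif3h NP, 10783 and 4303 in WT PL, and 19421 and 7042 in WT NP. Its change of -2.25 was made up of -4.13 and -0.38. For rpl20 the 2 replicates gave -3.48 and -0.31, and its translation state in eif3h, -3.33, was the lowest mean of the tested genes there (adjusted p = 0.00378 by limma).

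At the other end stood rpl22, a protein of the exit-tunnel region, which was the only one of the 32 with a positive mean translation state in both genotypes (with median centring rps2 and rps3 were positive in both as well). It had 6842 and 5728 in eif3h PL, 6104 and 2766 in eif3h NP, 5548 and 4209 in WT PL, and 2751 and 1152 in WT NP. In WT its PL signal was 2.71-fold higher than NP (log2 1.44, adjusted p = 0.00489 by limma), and in eif3h the value was 0.61 (adjusted p = 0.104). Its replicates were close, with changes of -0.85 and -0.82, and its NP signal rose by 2.31-fold in eif3h (adjusted p = 0.0192 by limma) while PL differed by log2 0.37.

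The gene rpl33, whose product is a small protein near the exit site of tRNA in bacteria, was the single gene with a positive change. Its signal was 17145 and 20941 in eif3h PL, 18965 and 27673.5 in eif3h NP, 19853.5 and 22805 in WT PL, and 27124.5 and 26407 in WT NP. The genotypes overlapped in NP, the eif3h translation states (-0.15 and -0.40) overlapped those of WT (-0.45 and -0.21), and the change of 0.06 had a standard error of 0.29. The brightest large-subunit gene, rpl2, a protein at the peptidyl transferase centre, had 27741 and 41324 in eif3h PL, 70229 and 67587.5 in eif3h NP, 28345 and 35909 in WT PL, and 45328 and 45773.5 in WT NP. NP was higher in both eif3h arrays, PL overlapped, and the change was -0.51. The gene rpl23 had 22071.5 and 18290 in eif3h PL, 61544 and 22686.5 in eif3h NP, 25656 and 15645 in WT PL, and 42401 and 20067 in WT NP. Its change of -0.35 was the second highest of the 32, came to -0.75 and 0.05 in the 2 replicates, and was 0.011 with median centring. The remaining rpl32 and rpl36 had changes of -0.71 and -0.88, negative in both replicates.

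The 3 genes for splicing, proteolysis and lipid synthesis all had negative changes. The gene matK encodes the maturase that helps to splice a class of plastid introns, and it was the most even of the 3. It had 16020 and 16670.5 in eif3h PL, 73800.5 and 57152 in eif3h NP, 21979 and 18020 in WT PL, and 48203 and 33787 in WT NP. Both eif3h PL arrays were below both WT PL arrays, both eif3h NP arrays were above both WT NP arrays, and the replicate changes were -1.07 and -0.87. The mean change of -0.97 had a standard error of 0.29 and an adjusted p of 0.222 by limma. The gene clpP encodes the plastid-made proteolytic subunit of the Clp protease. Its signal was 7460 and 14582 in eif3h PL, 85891 and 79817.5 in eif3h NP, 18089 and 16363 in WT PL, and 57599 and 72758 in WT NP. It showed the same lack of overlap in both fractions, and its PL signal was below NP in eif3h (log2 -2.99, adjusted p = 0.000229 by limma) and in WT (log2 -1.91, adjusted p = 0.00179).

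The gene accD encodes a subunit of the plastid acetyl-CoA carboxylase, which makes the first intermediate of fatty acid synthesis. It had 878 and 1917.5 in eif3h PL, 12515 and 4501 in eif3h NP, 5842 and 3542 in WT PL, and 9795 and 4124 in WT NP. The 2 eif3h PL arrays were the lowest of its 8. It was the only one of the 29 whose PL signal passed the test between genotypes, and it fell by 1.81 on the log2 scale in eif3h (3.51-fold, adjusted p = 0.0466 by limma), beside 7.61% of all tested probe sets called lower and 5.92% called higher. This call was lost with median centring, without the signal filter, without the variance trend, without the replicate block, and without WT replicate 1 or WT replicate 2. The difference was -0.75 without eif3h replicate 1 and -2.87 without eif3h replicate 2.

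The 6 remaining genes all had a negative change, with a median of -1.78, and of -1.50 over the 5 that were tested. The gene ycf4, for an assembly factor of photosystem I, had 1305 and 3353 in eif3h PL, 8305 and 5974 in eif3h NP, 4647 and 4875 in WT PL, and 3429 and 3414 in WT NP. PL was lower and NP higher in eif3h without overlap, and the translation state was -1.75 ± 1.30 in eif3h and 0.48 ± 0.05 in WT (SD, n = 2 each). Its change was -3.11 and -1.35 in the replicates, with a mean of -2.23 and an adjusted p of 0.167 by limma. The gene ycf3, for another photosystem I assembly protein, had 228 and 1358 in eif3h PL, 2644 and 1410 in eif3h NP, 1068 and 771 in WT PL, and 897 and 629 in WT NP. Its change came to -3.79 in replicate 1 and -0.35 in replicate 2, and its eif3h PL arrays fell on either side of WT.

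For ycf1, a very large gene tied to the protein import machinery of the inner envelope, the signal was 5154 and 13866 in eif3h PL, 26279 and 23061 in eif3h NP, 9338 and 10188 in WT PL, and 12178.5 and 8989 in WT NP. Its change of -1.44 was negative in both replicates (-1.97 and -0.91). For ycf2, a subunit of a protein-import motor complex, the probe set was dim and untested, and its change of -2.74 was -1.83 when an offset of 32 was added to every signal, no longer the lowest of the 32. It had 8.1 and 41.5 in eif3h PL, 466.5 and 383 in eif3h NP, 30.8 and 48.8 in WT PL, and 97.6 and 184 in WT NP. Its NP signal was higher in both eif3h arrays without overlap, while its PL signals were dim and overlapped. The gene ccsA, for cytochrome c maturation, was bright, with 15904 and 23986 in eif3h PL, 79371 and 79390 in eif3h NP, 24552 and 25728 in WT PL, and 54169 and 70527.5 in WT NP. Both fractions separated the genotypes, with PL lower and NP higher in eif3h, and the change was -0.72. The gene cemA, for an envelope membrane protein, had 4369 and 13244 in eif3h PL, 40669 and 18042 in eif3h NP, 14900 and 14591 in WT PL, and 25793 and 13399 in WT NP, and a change of -1.50.

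**Figure D3:**
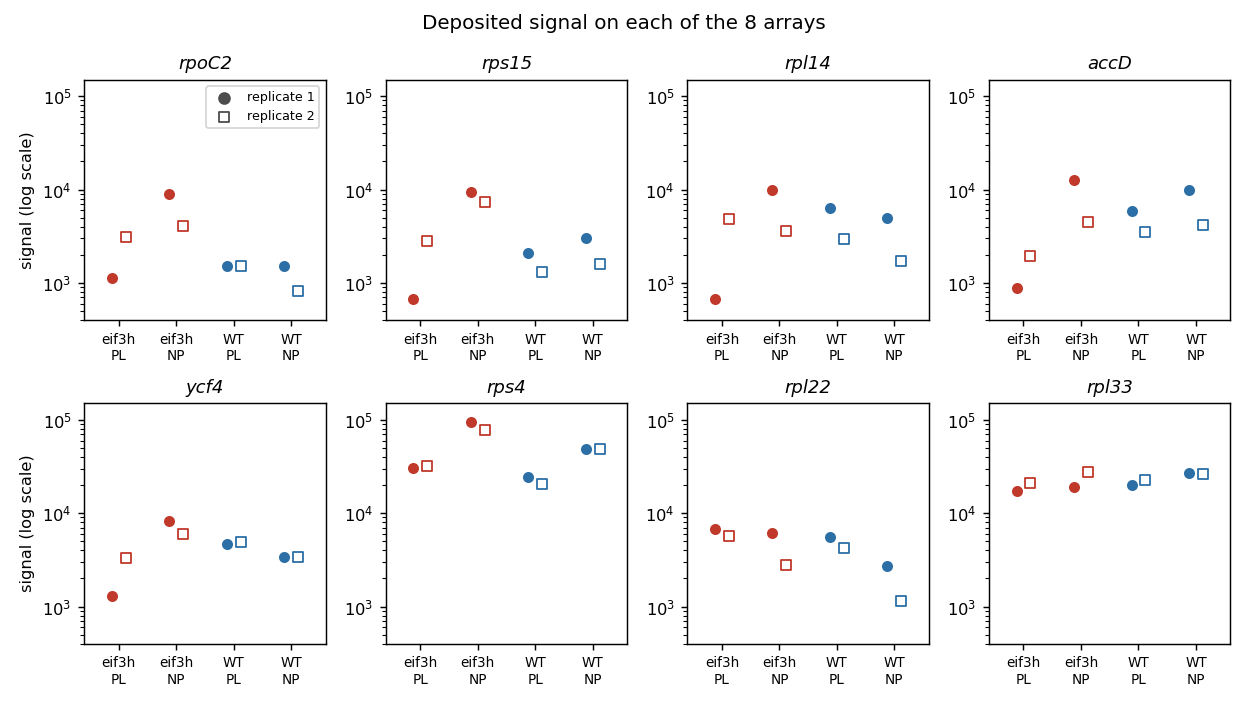
Deposited signal (log scale) of 8 genes on the 8 arrays, with eif3h in red and WT in blue, PL left of NP within each genotype, replicate 1 as filled circles and replicate 2 as open squares. In rpoC2, rps15, rpl14, accD and ycf4 the eif3h PL circle is the lowest point or next to it (for example 1305 in ycf4), while the 2 eif3h PL points lie close together in rps4, rpl22 and rpl33.

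Signal of most of these genes was higher in eif3h NP in both replicates, whereas in PL the replicates differed in sign at the median. In NP, 31 of the 32 genes had a higher mean signal in eif3h, with a median of 0.78 against 0.10 over all tested probe sets (30 with quantile normalization and 27 with median centring), and the replicate medians were 0.78 and 0.72. By limma, 6 rose in eif3h NP (rpoA, rpoC2, rps3, rps4, rps19 and rpl22) and none fell, where 8.45% of all tested probe sets were called higher and 8.65% lower. The count was 2 with median centring (rpoC2 and rpl22), 2 without the signal filter (the same 2) and 1 without the replicate block (rpoC2). With single gradients left out, the NP median of the 32 genes ranged from 0.43 (without WT replicate 2) to 1.08 (without WT replicate 1). Only rpoC2 passed under all 7 alternatives that kept every gradient, and rpl22 missed 1 of them. For 20 of the 32 (18 of the 29 tested) both eif3h NP arrays exceeded both WT NP arrays, beside 29.2% of tested probe sets. The reverse held for none, beside 21.8%. In PL the median difference was -0.38, made up of -0.88 in replicate 1 and 0.23 in replicate 2, and it was 0.30 without eif3h replicate 1. PL was lower in eif3h without overlap for 9 of the 32 (rpoB, rpl32, rpl36, matK, clpP, accD, ycf4, cemA and ccsA), a share close to the 29% of all tested probe sets, and higher without overlap for rps3, rps4 and rpl22, beside 24.4%. Together the 32 probe sets made up 1.39% and 1.85% of the summed signal in eif3h PL, 5.29% and 4.02% in eif3h NP, 1.94% and 1.66% in WT PL, and 3.28% and 2.67% in WT NP. The higher median was seen in NP and not in PL, and its cause was not tested. More plastids, more RNA per plastid and other causes cannot be told apart in these bulk samples. All these comparisons share the same 8 arrays.

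**Figure D4:**
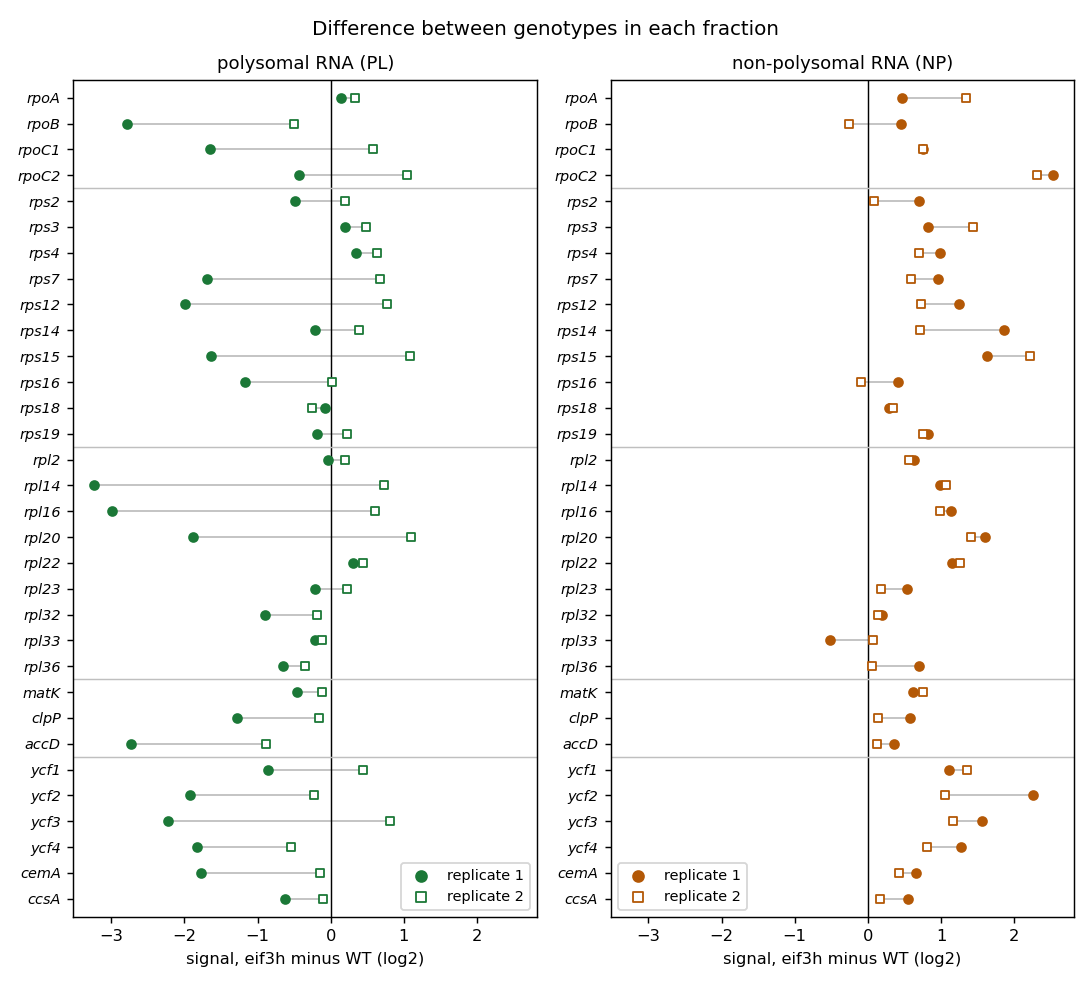
Difference in signal between the genotypes (eif3h minus WT, log2) in PL (left, green) and NP (right, orange) for each gene, with replicate 1 as filled circles and replicate 2 as open squares. In NP nearly all points lie right of 0 in both replicates (medians 0.78 and 0.72), while in PL the circles lie mostly left of 0 and the squares on both sides (medians -0.88 and 0.23).

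The 2 eif3h gradients lay far apart for these genes. The gap between them in translation state had a median of 1.48 over the 32 genes, against 0.30 between the WT gradients, and over all tested probe sets the medians were 0.34 and 0.30. The eif3h gap was the larger one for 29 of the 32. Replicate 1 was below replicate 2 in eif3h PL for 25 of the 32, with a median difference of -0.94, while in eif3h NP, WT PL and WT NP replicate 1 was higher at the median (0.63, 0.29 and 0.51). Each replicate number also had its own scan day and scanner, which both genotypes shared. The gap was narrow for rpoA (0.14), rps18 (0.07), rpl33 (0.26), rps4 (0.35) and matK (0.43), and widest for rpl14 (4.31), rpl16 (3.88), ycf3 (3.48) and rps12 (3.45). Across the 32 genes the changes in replicates 1 and 2 were weakly related (Pearson's r = 0.18, Spearman's rho = 0.11), and over all tested probe sets both were 0.43. These correlations are across genes that share the same arrays and are not independent replicates. Without eif3h gradient 1 the median change was -0.37 with 28 of 32 negative, against a median of -0.13 over all tested probe sets. The median PL difference was then 0.30. Without eif3h gradient 2 the median change was -1.74. Both replicates were below -1 on the log2 scale for rpoC2, rps15, accD, ycf2 and ycf4, beside 1.79% of all tested probe sets.

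Neighbours on the plastid chromosome did not share 1 value. Along the ribosomal protein cluster, the changes were -0.76 for rps19, -0.83 for rpl22, -0.79 for rps3, -2.25 for rpl16, -2.28 for rpl14, -0.88 for rpl36 and -0.67 for rpoA. The step between rps3 and rpl16 came from replicate 1, where rps3 had -0.63 and rpl16 -4.13, and in replicate 2 they had -0.95 and -0.38. In the cluster of accD, psaI, ycf4, cemA and petA the changes were -2.05, -0.83, -2.23, -1.50 and -0.76, where psaI (a small photosystem I subunit) and petA (cytochrome f) are photosynthesis genes. From rpoC1 through rpoC2 and rps2 to atpI (a subunit of the plastid ATP synthase) they were -1.29, -2.12, -0.54 and -2.23. The genes rps15 and ndhH lie side by side, ndhH encoding a subunit of the plastid NADH dehydrogenase-like complex, and had -2.20 and -3.10.

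The 44 plastid photosynthesis genes with a probe set gave a nearby picture. Their median change was -1.23, with -1.67 in replicate 1 and -0.45 in replicate 2. All 44 were negative (40 with median centring), and none passed the adjusted limma test. Of the 44, 21 had an unadjusted p under 0.05, all with a negative change, beside 8.46% of all tested probe sets. With the gradient as the block 5 passed, all down, beside 0.615% of all tested probe sets. In PL their difference between genotypes was negative for all 44 (42 with quantile normalization and 41 with median centring, median -0.71), against 23 of the 32 genes described here, and in NP their median was 0.39, against 0.78. These medians describe the lists, and the difference between the lists was not tested.

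The nucleus supplies most of the other parts of the plastid machinery, and few of those genes had a probe set named in the tables used. Of 33 nuclear genes for plastid ribosomal proteins 9 were measured, and all 9 had a positive change (8 with quantile normalization), with a median of 0.76 and a range from 0.21 to 1.36. That is opposite in sign to the mean change of the plastid-encoded ribosomal proteins described here other than rpl33. However, rps4 was positive with quantile normalization, and rps4 and rpl23 with median centring. In replicate 2 alone, rps2, rps7, rps12, rps16 and rpl23 were slightly positive. The contrast between the lists was not tested. None of the 9 passed the adjusted test, and 5 had an unadjusted p under 0.05, beside the 6.02% of all tested probe sets with a positive change at that p. With the gradient as the block 2 of the 9 passed, beside 1.02% of all tested probe sets. The lowest p was that of AT2G43030, with a change of 1.36 (adjusted p = 0.154 by limma). Its signal was 16088 and 18151.5 in eif3h PL, 3805 and 4235 in eif3h NP, 16234.5 and 11763 in WT PL, and 8181 and 8506 in WT NP, so that PL overlapped and NP was lower in eif3h (adjusted p = 0.0131). In NP the 9 genes had a median of -0.67 and 4 of them fell in eif3h, beside 8.65% of all tested probe sets. Of 7 plastid translation factors 3 were measured, with changes of -0.50 for FUG1 (plastid initiation factor 2), 0.13 for AT5G24490 and -0.07 for AT2G24060. Of 15 Clp protease and carboxylase partners 2 were measured, at 0.06 for CLPP4 and 0.42 for AT1G09130, and the 1 measured gene of 20 for plastid transcription, AT5G15700, was dim and untested. None of the tested ones among these 6 passed the test for the change.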

How the data were processed

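The authors extracted PL and NP RNA from sucrose gradients, hybridised it to Affymetrix ATH1 arrays and background-corrected and scaled the arrays with MAS 5.0. The deposited intensity values are these linear signals, 1 per probe set and array, with trimmed means of 500.037 to 500.058. Here they were log2-transformed with no offset. The 50% of non-control probe sets with the highest mean (above a signal of 215) were fitted with limma 3.58.1 in R 4.3.3 (4 groups, replicate number as block, eBayes with trend). P-values were two-sided and Benjamini-Hochberg adjusted over 11373 probe sets, with a threshold of 0.05. They rest on the residual spread of single arrays around the group and replicate terms, pooled over the 4 groups and moderated by eBayes. PL and NP arrays of 1 gradient were treated as independent. The spread was assumed equal in the genotypes, although the median gap between gradients for the 32 genes was 1.48 in eif3h and 0.30 in WT. Precision is limited by how few arrays there are.

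The replicate number was used as a block because the methods give a separate preparation day for each, and the deviations of same-numbered arrays correlated between all groups. Between PL and NP of the same gradient r was 0.52 in eif3h and 0.68 in WT, and across genotypes it was 0.33 to 0.40. The stronger pairing by gradient was not in the main fit, and the gradient as the block was an alternative. Probe sets were named through the platform's annotation and RefSeq's gene table (13367 with 1 gene, 77 for plastid genes, 495 with several, 8730 with none), and that of TIF3H1 through the study's supplementary list, which served for the name only. Its position against the T-DNA is not stated in those sources. The probe sets of 6 genes (rps12, rpl2, rpl23, ycf2, rps7 and ycf1) match more than 1 plastid copy, and the brighter of the 2 rps12 probe sets was used.

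Every gene of the list is named. Signals per array were set to be given for the extremes of the change and of the WT translation state and for the brightest genes of each role, and were added for others whose values had been seen. The genes and lists were chosen with earlier results of these data known. The fit was run on simulated data with known changes, a replicate term and independent noise of equal spread on all arrays. That run does not show how the fit behaves under pairing by gradient or under a spread that differs between the genotypes. Other scalings, offset, filters, blocks and left-out gradients were tried.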

Additional observations from a re-analysis of the deposited data

Results flagged for a closer look

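For 3 genes the translation state ran in opposite directions in the genotypes, negative in both eif3h gradients and positive in both WT gradients, as did 5.98% of all tested probe sets. The sign depends on the scaling. With median centring ycf4 alone of the 32 ran this way, beside 1.94% of all tested probe sets, since the value in eif3h gradient 2 was then 0.37 for rpl36 and 0.50 for ycf3, and rpl33 ran the opposite way, beside 7.49%. With quantile normalization 6 did (these 3, rpoC2, rps2 and rpl14), beside 3.79%. For rpl36, a small protein of the large subunit, it was -1.06 and -0.18 in eif3h and 0.30 and 0.22 in WT, a change of -0.88 (adjusted p = 0.283 by limma). For ycf3 it was -3.54 and -0.05 in eif3h and 0.25 and 0.29 in WT, a change of -2.07 (adjusted p = 0.366). For ycf4 it was -2.67 and -0.83 in eif3h and 0.44 and 0.51 in WT, a change of -2.23 (adjusted p = 0.167). The test of the change is the test of this difference, and none of the 3 passed it with the replicate number as the block. With the gradient as the block ycf4 passed (adjusted p = 0.0321).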

How the results depend on the processing

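The negative median change of the 32 genes kept its direction under all alternatives tried, from -1.20 with quantile normalization to -0.77 with median centring, and from -1.74 to -0.37 when single gradients were left out. Scaling moved the median of all tested probe sets from -0.12 to 0.00 (quantile) and 0.24 (median centring), and relative to it the 32 genes were at -1.01, -1.20 and -1.01. Relative to that median they were at only -0.25 without eif3h replicate 1, and at -1.62 without eif3h replicate 2. Leaving out 1 gradient leaves a genotype with 1, assumed to vary like the other genotype's pair, which alone then gives the spread, and the counts of calls swung most. Over these fits the genes called for the change numbered 0 to 24 (down), those for the translation state 0 to 1 up in eif3h and 0 to 5 up and 3 to 16 down in WT, those for PL 0 to 12 up and 0 to 17 down, and those for NP 0 to 22 up. The median translation state ranged from -2.82 to -1.04 in eif3h and from -0.74 to -0.31 in WT, the number called lower in eif3h from 17 to 27, the PL median from -0.997 to 0.30 and the NP median from 0.43 to 1.08. Without eif3h replicate 1 the PL median was 0.30. With single gradients left out, the change ranged from -1.10 to 0.024 for rps2, -3.32 to 0.13 for rps12, -1.56 to 0.090 for rps16 and -0.94 to 0.23 for rpl23, each positive only without eif3h replicate 1, and from -0.071 to 0.19 for rpl33, negative without eif3h replicate 1 or WT replicate 1. The changes of rps4 and rpl33 were 0.25 and -0.20 with quantile normalization, and those of rps4 and rpl23 were 0.0071 and 0.011 with median centring.

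The replicate numbers pair the preparations, and without the replicate block no gene passed for WT up (1 with it) or PL down (1 with it), and 1 passed for NP up (6 with it), while 0 probe sets passed for the change in either direction. With the gradient as block, 1 gene passed down for the change and 11 for WT (7 with the replicate block), and 116 and 70 of all tested probe sets passed up and down for the change, against 2 and 4. Over all tested probe sets the change was called up for 0 (quantile), 35 (median centring), 0 (no filter), 5 (top 25% of signal) and 0 (no trend), and down for 1 (quantile), 0 (no filter) and 0 (no trend). Leaving out gradients gave 0 to 523 up and 1 to 394 down. Among the genes described, median centring gave 1 up in eif3h translation state, 0 down in PL and 2 up in NP, with an NP median of 0.53. Quantile normalization gave 1 up and 2 down in PL and an NP median of 0.69. Testing all probe sets gave 4 down in WT, 0 down in PL and 2 up in NP, the top 25% gave 2 down in PL, and no trend gave 0 down in PL. The cause of these shifts was not tested. Dim probe sets (rpoB, rps14, ycf2) limit what their ratios can show.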
